A study of Mus musculus with 6 samples.

Results

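Dendritic cell identity genes were examined in RNA sequencing of mouse hearts on day 7 after myocardial infarction (MI). The set holds 10 genes, taken by name: *Flt3*, *Zbtb46* and *Itgax*, which mark conventional dendritic cells (DCs) in general, *Xcr1*, *Clec9a*, *Batf3* and *Irf8*, which belong to type 1 conventional DCs (cDC1), *Cd209a* of type 2 conventional DCs (cDC2), *Siglech* of plasmacytoid DCs, and *Fscn1* of mature DCs. All 10 are among the 54532 genes of the table, and all 10 are among the 15520 that passed a filter on low values (10 or more fragments in 3 or more libraries, and 15 or more over all). The comparison was between 3 WT and 3 *Crlf2*-/- (TSLPR KO) mice, with 1 library per mouse. The labels say C57BL/6. The study's methods give male sex and an age of 8 to 12 weeks for its C57BL/6J mice. For the knockout, from a different supplier than the WT mice, they give a C57BL/6J background but no separate sex or age. All 6 mice had the left anterior descending coronary artery ligated, so the data hold no heart without infarction, and infarcted and peri-infarcted tissue was sequenced as a whole.

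Conventional DCs take up antigen in tissue, migrate to lymph nodes and present it to T cells. They grow in response to FLT3 ligand. The cDC1 lineage depends on IRF8 and BATF3 and is known for cross-presentation to CD8+ T cells, the cDC2 lineage depends on IRF4 and presents mainly to CD4+ T cells, and plasmacytoid DCs are producers of type I interferon. TSLP, the ligand of the receptor chain encoded by *Crlf2*, is known to act on CD11c+ DCs and to induce chemokines such as CCL17 and CCL22 in them. The question addressed here was whether DC genes as a whole, or those of 1 subset, differed between hearts with and without the receptor.

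Each library held between 18508646 and 19682428 fragments on listed genes. *Crlf2* transcripts were counted in every library, at 26.6, 25.1 and 21.6 FPKM in WT and 13.2, 18.7 and 19.8 FPKM in *Crlf2*-/- mice, so each knockout library was below each WT library but none was free of it (log2 fold change -0.52, adjusted p = 0.521 from limma). Values per gene do not show from which exons these fragments came. FPKM is the number of fragments scaled to transcript length and library size. The extraction text of the labels speaks of retina where the tissue label says heart. The cardiomyocyte gene *Myh6* lay between 15.4 and 89.2 FPKM. The 6 cardiomyocyte markers summed to between 861 and 1703 FPKM in WT and between 591 and 1149 FPKM in *Crlf2*-/- mice, so the share of muscle RNA differed between libraries. *Ptprc* (CD45), carried by all leukocytes, was at 10.7, 8.15 and 11.5 FPKM in WT and 12.8, 9.91 and 10.4 FPKM in *Crlf2*-/- mice, and these ranges overlap.

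The 250 bases before the RefSeq start site (GRCm38.p6) are shown for the 4 genes used as subset markers in the ratios below, each 5′ to 3′ on its own strand. Capitals mark GGAA on either strand, the core letters bound by ETS factors, the family of PU.1, which DCs need. The window of *Cd209a*, the cDC2 gene, is chr8:3748985-3749234 on the minus strand, that of *Clec9a* is chr6:129408612-129408861 on the plus strand, that of *Xcr1* is chr9:123862030-123862279 on the minus strand and that of *Siglech* is chr7:55767934-55768183 on the plus strand.
Cd209a: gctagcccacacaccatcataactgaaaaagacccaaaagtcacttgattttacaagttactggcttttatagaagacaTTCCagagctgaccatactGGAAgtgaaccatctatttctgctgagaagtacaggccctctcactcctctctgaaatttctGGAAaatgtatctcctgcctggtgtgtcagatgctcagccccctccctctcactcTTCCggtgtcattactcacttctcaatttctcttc
Clec9a: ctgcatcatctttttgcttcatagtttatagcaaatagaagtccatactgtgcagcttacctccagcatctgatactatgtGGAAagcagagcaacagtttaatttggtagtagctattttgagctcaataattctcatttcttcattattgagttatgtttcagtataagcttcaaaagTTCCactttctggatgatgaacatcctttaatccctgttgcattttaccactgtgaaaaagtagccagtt
Xcr1: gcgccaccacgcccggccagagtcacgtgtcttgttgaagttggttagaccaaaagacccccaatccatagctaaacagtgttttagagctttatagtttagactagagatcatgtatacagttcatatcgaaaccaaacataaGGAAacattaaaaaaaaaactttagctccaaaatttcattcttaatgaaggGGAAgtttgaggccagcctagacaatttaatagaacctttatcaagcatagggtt
Siglech: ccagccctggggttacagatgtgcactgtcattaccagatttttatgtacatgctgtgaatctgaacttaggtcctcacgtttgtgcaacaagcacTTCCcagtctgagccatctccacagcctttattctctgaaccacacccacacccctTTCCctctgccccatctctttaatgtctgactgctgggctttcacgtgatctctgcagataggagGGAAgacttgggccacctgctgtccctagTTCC
The *Cd209a* and *Siglech* windows hold 4 matches each, and those of *Clec9a* and *Xcr1* hold 2 each. Since 93.4% of 32851 promoter windows of this length hold at least 1 such match, its presence sets none of these genes apart. The longer motifs GAGGAAG (PU.1 type), an IRF pair (GAAA, any 2 bases, GAAA), an ETS-IRF composite (GGAA, any 2 bases, GAAA), both of which can overlap GGAA, and TGANTCA (AP-1), searched on both strands, had 0 matches in these 4 windows and occur in 10.6%, 2.98%, 2.30% and 6.75% of all promoter windows.

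Of the 10 genes, *Cd209a* had the largest difference, and it was lower in *Crlf2*-/- hearts. *Zbtb46* was lower by a smaller amount, and in the other 8 genes the libraries of the groups overlapped. Genes were called at an adjusted p of 0.05 or less together with a log2 fold change of 0.5 or more in size, from limma on the log2(FPKM + 0.1) scale with Benjamini-Hochberg adjustment over 15520 genes. Of the 10 genes 0 were called, where 0.0129% of all tested genes were, 0.00644% in each direction. At an unadjusted p under 0.05 there were 2 of the 10 genes, both lower, where 6.58% of all tested genes passed that level, 3.36% lower and 3.22% higher. Likewise, 2 of the 10 had every *Crlf2*-/- library below every WT library, and 0 had every one above, against 6.45% and 5.24% of all tested genes. The median log2 fold change was -0.14 over the 10 genes and -0.004 over all genes tested, with 7 genes lower and 3 higher. In these bulk samples fewer cells of a type and less RNA per cell cannot be told apart.

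*Cd209a* (ENSMUSG00000031494, minus strand of chromosome 8, from 3743397 to 3748984 in GRCm38) encodes a C-type lectin related to human DC-SIGN and is carried by cDC2 and by monocyte-derived DCs. It was at 2.72, 3.67 and 3.64 FPKM in the WT libraries and at 1.85, 1.08 and 2.10 FPKM in the *Crlf2*-/- libraries. Every *Crlf2*-/- mouse lay below every WT mouse, with replicate 2 the lowest. Mean FPKM was 3.34 ± 0.543 (SD, n = 3) for WT against 1.68 ± 0.531 (SD, n = 3) for *Crlf2*-/- hearts. The log2 fold change was -0.99 (standard error 0.25, 95% interval -1.55 to -0.42), or 0.505 of the WT level. By limma its unadjusted p was 0.0038, which adjustment took to 0.329, and 178 of the tested genes had a smaller p. An exact permutation test gave p = 0.1 (two-sided), the smallest that 3 mice against 3 allow. These values rest on 99, 126 and 126 fragments in WT and on 65, 40 and 75 in *Crlf2*-/- libraries, so counting error alone is 15.8% of the lowest value. None of the 1716 stretches of 100 bases in *Cd209a* transcripts occurs in a transcript of another gene. The neighbouring genes *Cd209b* to *Cd209g* of the same family had at most 10 fragments in any library.

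*Zbtb46* (ENSMUSG00000027583, minus strand of chromosome 2, from 181387762 to 181459426) encodes a zinc finger factor of conventional DCs that is absent from most other leukocytes but is also expressed by endothelium. The WT libraries had 1.68, 2.16 and 2.05 FPKM and the *Crlf2*-/- libraries had 1.40, 1.36 and 1.53 FPKM. Again no *Crlf2*-/- mouse reached a WT mouse, with a gap between the groups that was narrow beside the spread among WT mice. On the log2 scale it differed by -0.42 (SE 0.15, 95% interval -0.78 to -0.07), with an unadjusted p of 0.0249 and adjusted p = 0.635 from limma. The unadjusted p ranged from 0.0175 to 0.0962 with single libraries left out, and it was above 0.05 without WT replicate 2 or 3 or *Crlf2*-/- replicate 1 or 2. Of 5 endothelial markers, 4 were lower as well, with *Tek* at a log2 fold change of -0.32 and *Pecam1* at -0.19, and the list summed to between 115 and 137 FPKM in WT and between 108 and 115 FPKM in *Crlf2*-/- hearts. Within each library, the log2 ratio of *Zbtb46* to *Pecam1* was -4.29, -4.01 and -4.19 in WT and -4.42, -4.48 and -4.35 in *Crlf2*-/- mice. This ratio did not overlap between the groups, nor did that of *Zbtb46* to the endothelial gene *Cdh5*, while the ratio of *Zbtb46* to *Tek* did. The part of endothelium in the *Zbtb46* difference was not tested.

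*Flt3* (ENSMUSG00000042817, minus strand of chromosome 5, from 147330741 to 147400489), the receptor for FLT3 ligand on DCs and their precursors, was at 0.710, 1.00 and 1.42 FPKM in WT and at 0.708, 0.458 and 1.10 FPKM in *Crlf2*-/- hearts. Its log2 fold change was -0.44 (95% interval -1.21 to 0.33, adjusted p = 0.939 from limma). Leaving out *Crlf2*-/- replicate 2 or WT replicate 3 gave -0.16 or -0.21, and leaving out WT replicate 1 or *Crlf2*-/- replicate 3 gave -0.66 or -0.72. The interval spans both the difference seen for *Cd209a* and none, and *Flt3* varied 3.1-fold between the highest and lowest of the 6 libraries. *Itgax* (ENSMUSG00000030789, plus strand of chromosome 7, from 128129547 to 128150657), which encodes CD11c and is also expressed by macrophages, had 6.69, 6.30 and 7.85 FPKM in WT and 7.11, 4.34 and 6.92 FPKM in *Crlf2*-/- mice. Only replicate 2 of the *Crlf2*-/- mice lay below the WT range. The log2 fold change of *Itgax* was -0.20 (95% interval -0.66 to 0.25) and became 0.03 without that mouse. Of its 100-base stretches, 3.05% are shared with the neighbouring integrin gene *Itgad*.

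**Figure D1:**
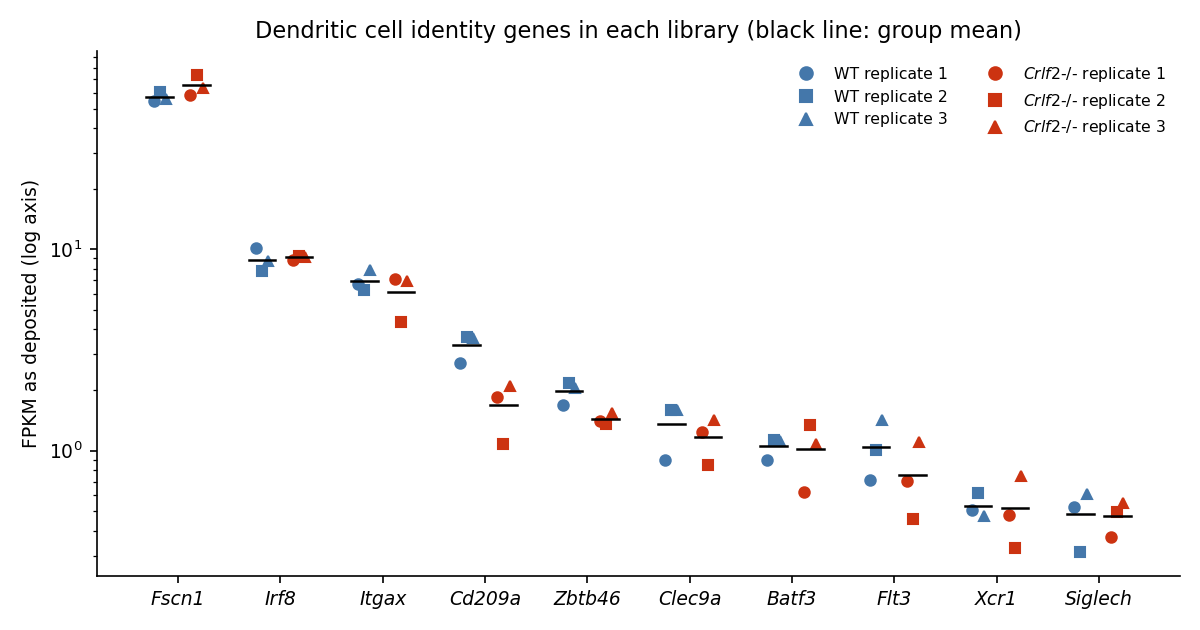
FPKM as deposited, on a log axis, of the 10 dendritic cell identity genes in each of 3 WT (blue) and 3 *Crlf2*-/- (red) libraries, with symbols for the replicates and black lines for group means. *Cd209a* and *Zbtb46* are the genes in which no red point reaches a blue one, and replicate 2 of the *Crlf2*-/- mice (red square) is the lowest point in 6 of the 10 genes.

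The cDC1 genes overlapped between the groups. *Xcr1* (ENSMUSG00000060509, minus strand of chromosome 9, from 123852315 to 123862029), the receptor for the chemokine XCL1, was at 0.507, 0.611 and 0.472 FPKM in WT and at 0.476, 0.327 and 0.747 FPKM in *Crlf2*-/- hearts. Both the lowest and the highest value came from *Crlf2*-/- mice. For *Xcr1* the log2 fold change was -0.08 (SE 0.28, 95% interval -0.72 to 0.57). *Clec9a* (ENSMUSG00000046080, plus strand of chromosome 6, from 129408862 to 129424763), a lectin that senses dead cells, had 0.897, 1.58 and 1.58 FPKM in WT and 1.23, 0.846 and 1.41 FPKM in *Crlf2*-/- mice, with 1 low mouse in each group. *Clec9a* had a log2 fold change of -0.18 (standard error 0.27, 95% interval -0.80 to 0.44). It shares 184 exonic bases with *Clec1b* on the same strand. Fragments for *Xcr1* numbered between 34 and 75 per library and those for *Clec9a* between 65 and 114. The log2 fold change of *Cd209a*, -0.99, lies outside both intervals, but its own interval, -1.55 to -0.42, overlaps both. Whether *Cd209a* differed more than these genes was not tested.

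The cDC1 transcription factors gave a like result. *Batf3* (ENSMUSG00000026630, plus strand of chromosome 1, from 191097847 to 191108945) was at 0.897, 1.13 and 1.12 FPKM in WT and at 0.621, 1.34 and 1.08 FPKM in *Crlf2*-/- hearts, so 1 knockout mouse lay below, 1 above and 1 inside the WT range. Its log2 fold change was -0.09 (95% interval -0.70 to 0.53) on 22 to 50 fragments per library. *Irf8* (ENSMUSG00000041515, plus strand of chromosome 8, from 120736358 to 120756694), which is also expressed by monocytes, macrophages and B cells, had 10.1, 7.80 and 8.74 FPKM in WT and 8.88, 9.28 and 9.19 FPKM in *Crlf2*-/- mice. The *Crlf2*-/- values lay inside the WT range, with a log2 fold change of 0.05 (standard error 0.12, 95% interval -0.23 to 0.32).

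*Siglech* (ENSMUSG00000051504, plus strand of chromosome 7, from 55768178 to 55778925) belongs to the Siglec family of lectins and is expressed by plasmacytoid DCs and some macrophages. It was at 0.526, 0.314 and 0.608 FPKM in WT and at 0.373, 0.494 and 0.551 FPKM in *Crlf2*-/- hearts. Again the *Crlf2*-/- values lay inside the WT range. The log2 fold change was 0.001 (standard error 0.27, 95% interval -0.61 to 0.62), on 23 to 45 fragments per library. *Fscn1* (ENSMUSG00000029581, plus strand of chromosome 5, from 142960343 to 142973185), an actin-bundling protein of mature DCs that fibroblasts and endothelium also make, was at 54.7, 60.5 and 55.8 FPKM in WT and at 58.7, 73.8 and 63.1 FPKM in *Crlf2*-/- hearts. *Fscn1* had a log2 fold change of 0.19 (standard error 0.12, 95% interval -0.08 to 0.46), with replicate 2 of the *Crlf2*-/- mice the highest, and of 0.10 without that mouse. Of 5 fibroblast markers, 3 were higher and 2 lower, with *Pdgfra* at a log2 fold change of -0.17 and *Dcn* at -0.10. *Col1a1* was the 1 marker of the 5 higher in every *Crlf2*-/- library than in every WT library, against 5.24% of all tested genes. *Fscn1* itself overlapped between the groups, as did its log2 ratio to *Col1a1* within a library. The mean of this ratio was -5.30 in WT and -5.36 in *Crlf2*-/- mice. The part of fibroblasts in the *Fscn1* difference was not tested.

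**Figure D2:**
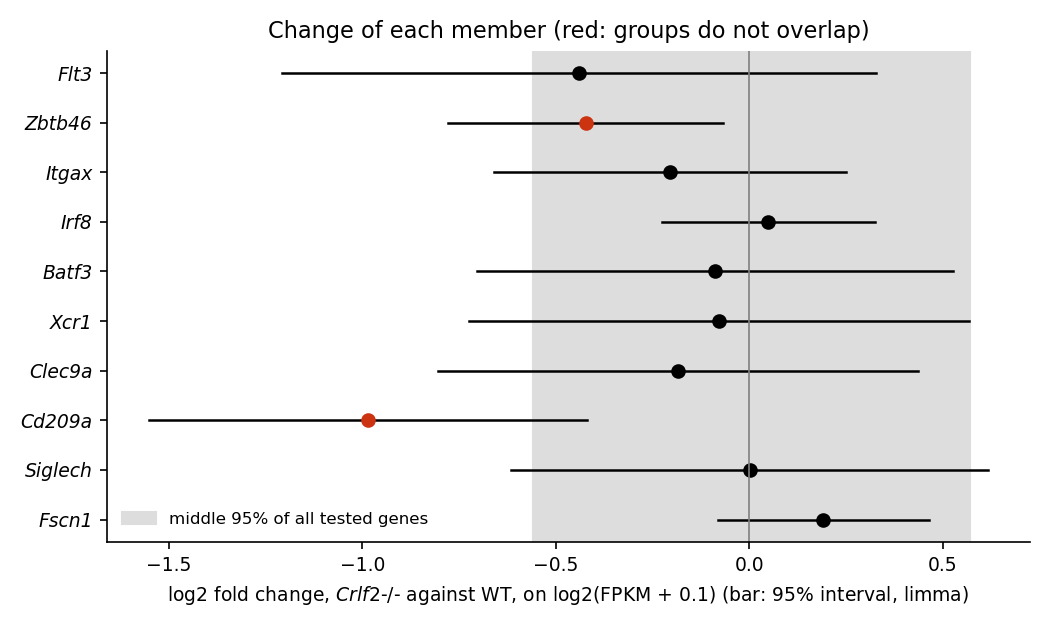
Log2 fold change of each gene in *Crlf2*-/- against WT hearts on log2(FPKM + 0.1), with the 95% interval from limma as a bar, over a grey band that holds the middle 95% of all tested genes, from -0.56 to 0.57. *Cd209a*, at -0.99, is the 1 gene outside the band, and the intervals of *Cd209a* and *Zbtb46* (red, groups not overlapping) are the ones that leave out 0.

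Levels can be compared between genes on the FPKM scale, which accounts for length. *Fscn1* ranked first in every library, followed by *Irf8* and then *Itgax*. *Fscn1* was clear of the others, with 61.1 FPKM on average over the 6 libraries, and its range did not overlap that of *Irf8*. *Irf8* was above *Itgax* in each of the 6 libraries, although their ranges met. These 3 genes have sources outside DCs, and whole tissue does not show which cells the transcripts came from. *Cd209a* was at rank 4 in 5 of 6 libraries and at rank 6 in *Crlf2*-/- replicate 2, behind *Zbtb46* and *Batf3*. From *Cd209a* downward the ranges of neighbours in the order overlapped, and *Clec9a*, *Batf3* and *Flt3* changed places between libraries. *Xcr1* and *Siglech*, at 0.524 and 0.478 FPKM on average, could not be ordered, with *Xcr1* above *Siglech* in 3 of 6 libraries.

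Ratios of 2 markers within a library do not depend on how libraries are scaled. They set single genes, not whole subsets, against each other. The log2 ratio of *Clec9a* to *Cd209a* was -1.60, -1.21 and -1.20 in WT and -0.59, -0.36 and -0.57 in *Crlf2*-/- hearts, and every *Crlf2*-/- library was above every WT library. The log2 ratio of *Xcr1* to *Cd209a* was -2.42, -2.59 and -2.95 in WT and -1.96, -1.73 and -1.49 in *Crlf2*-/- hearts, again with no overlap. For *Siglech* to *Cd209a* the log2 ratio was -2.37, -3.55 and -2.58 in WT and -2.31, -1.13 and -1.93 in *Crlf2*-/- hearts, and here the nearest libraries almost met. Each of these ratios holds *Cd209a*, so they are not independent of one another. Because *Cd209a* by itself already separated the groups, its ratios to genes with little difference were likely to separate too. Between cDC1 and plasmacytoid markers the groups overlapped, with a mean log2 ratio of *Xcr1* to *Siglech* of 0.18 ± 0.69 (SD, n = 3) in WT and 0.07 ± 0.57 (SD, n = 3) in *Crlf2*-/- mice. Set against the leukocyte gene *Ptprc*, *Cd209a* had mean log2 ratios of -1.60 ± 0.42 (SD, n = 3) in WT and -2.76 ± 0.44 (SD, n = 3) in *Crlf2*-/- mice, without overlap, and *Zbtb46* to *Ptprc* separated as well, while *Xcr1*, *Clec9a*, *Siglech* and *Flt3* overlapped. No test was made of these ratios.

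**Figure D3:**
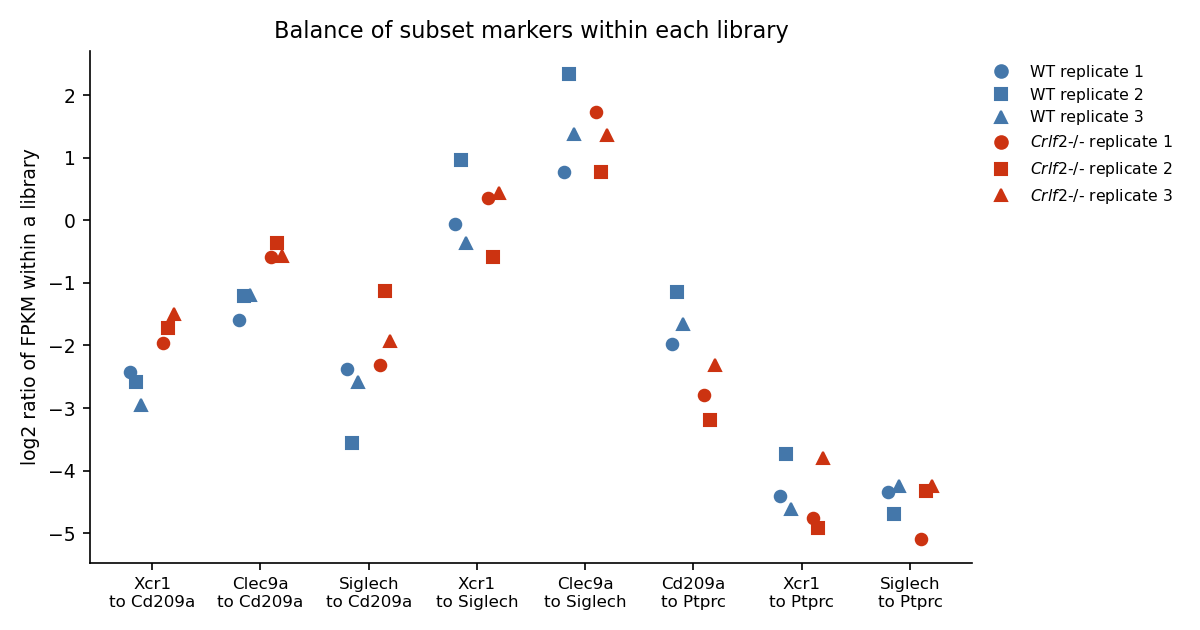
Log2 ratios of the FPKM of 2 genes within each library, for 3 WT (blue) and 3 *Crlf2*-/- (red) mice, with symbols for the replicates. The groups separate in the 4 ratios that hold *Cd209a*, which separates them by itself, and overlap in the 4 that do not.

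Further genes of each DC class were taken from lists of 57 genes outside the 10, of which 50 passed the filter on low values. None of the 50 passed the adjusted threshold. The cDC2 list held 8 tested genes, 5 lower and 3 higher, with a median log2 fold change of -0.30, and 3 of them were lower at an unadjusted p under 0.05, a level at which 3.36% of all tested genes were lower. Set against the WT mean, the median of the list was -0.13, 0.07 and 0.08 in the WT libraries. It was -0.06, -0.10 and -0.41 in the *Crlf2*-/- libraries, so the groups overlapped. *Mgl2*, a galactose-binding lectin of cDC2 and of some macrophages, was at 0.767, 0.860 and 0.895 FPKM in WT and at 0.151, 0.184 and 0.297 FPKM in *Crlf2*-/- hearts, with no overlap. The log2 fold change of *Mgl2* was -1.62 with a standard error of 0.24 (limma, adjusted p = 0.109), on 37 to 41 fragments in WT and 7 to 14 in *Crlf2*-/- libraries, and at this low level it was -0.60 with a pseudocount of 1. *Clec10a*, its neighbour on chromosome 11 and a close relative, had 2.40, 2.95 and 2.79 FPKM in WT and 1.68, 1.33 and 1.35 FPKM in *Crlf2*-/- mice, which is -0.86 on the log2 scale with a standard error of 0.16 (limma, adjusted p = 0.15). The transcripts of the pair share 3.95% of the 100-base stretches of *Mgl2*, and their summed fragments were 197, 224 and 218 in WT and 115, 99 and 102 in *Crlf2*-/- libraries. The sum does not depend on which gene of the pair a shared fragment was given to. Each gene separated the groups by itself, so the sum had to separate them too. It does not show the difference of *Mgl2* alone. *Ccl17*, a chemokine for CCR4+ T cells, had 3.46, 3.05 and 3.56 FPKM in WT and 2.11, 3.25 and 2.07 FPKM in *Crlf2*-/- mice, with 1 knockout mouse inside the WT range. *Irf4*, the cDC2 transcription factor, had 0.558, 0.810 and 0.774 FPKM in WT and 0.754, 0.271 and 0.326 FPKM in *Crlf2*-/- mice, so 1 knockout mouse lay inside the WT range. *Sirpa*, the most abundant gene of the list and one that macrophages share, had mean FPKM of 66.6 ± 7.16 (SD, n = 3) for WT and 75.9 ± 5.25 (SD, n = 3) for *Crlf2*-/- hearts and overlapped. *Notch2* and *Dtx1* were higher as well, at log2 fold changes of 0.15 and 0.13, and also overlapped.

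The cDC1 list held 10 tested genes, 8 lower and 2 higher, with a median log2 fold change of -0.15. Of the 10, 0 had an unadjusted p under 0.05 in limma, which is near the share of 6.58% over all tested genes. *Naaa*, a lysosomal amidase and its most abundant gene, had a log2 fold change of -0.21 (adjusted p = 0.851 from limma). Among genes shared by conventional DCs, 5 of 10 were lower and 5 higher, with a median of -0.01. *Id2*, a transcriptional inhibitor needed by cDC1 and also expressed by NK and other lymphoid cells, was the 1 gene of that list at an unadjusted p under 0.05. Over all tested genes 6.58% passed that level. *Csf2ra*, a receptor chain for GM-CSF and by a narrow margin the most abundant gene of the list over the 6 libraries together, though not in WT, where *Id2* was, overlapped between the groups. *Id2* lay at 35.4, 30.5 and 26.9 FPKM in WT and 26.3, 23.3 and 23.2 FPKM in *Crlf2*-/- hearts (log2 fold change -0.34, adjusted p = 0.667 from limma). The growth factor gene *Csf2* had 0 fragments in every library, which allows at most 3 fragments in a library of this depth by counting error alone.

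In the list of mature and migratory DCs, 6 of 11 tested genes were lower and 5 higher, with a median of -0.08, and its extremes lay in both directions. *Ccl22*, a chemokine of mature DCs and activated macrophages that also binds CCR4, was at 1.23, 0.695 and 1.00 FPKM in WT and at 0.213, 0.203 and 0.401 FPKM in *Crlf2*-/- hearts. With no overlap, *Ccl22* had a log2 fold change of -1.54 and a standard error of 0.29 (limma, adjusted p = 0.181), and of -0.63 with a pseudocount of 1. *Ccr7*, the receptor that guides mature DCs and naive T cells to lymph nodes, had 1.93, 2.31 and 3.26 FPKM in WT and 1.48, 1.06 and 1.73 FPKM in *Crlf2*-/- mice, also with no overlap (log2 fold change -0.76, adjusted p = 0.514 from limma). *Cd40*, the costimulatory receptor on antigen-presenting cells, lay the other way, at 2.14, 2.02 and 2.15 FPKM in WT and 3.47, 2.73 and 3.01 FPKM in *Crlf2*-/- hearts, without overlap (log2 fold change 0.52, adjusted p = 0.355 from limma). *Cd80* was also higher in every *Crlf2*-/- library, at 3.76, 4.13 and 4.11 FPKM in WT and 4.92, 4.21 and 4.48 FPKM in *Crlf2*-/- hearts. Its log2 fold change was 0.18 (adjusted p = 0.9 from limma). *Cd200*, the most abundant gene of the list, and *Cd86* overlapped between the groups.

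The plasmacytoid list held 7 higher and 4 lower of 11 tested genes, with a median of 0.16. There were 3 members higher at an unadjusted p under 0.05, where 3.22% of all tested genes were, and all 3 are genes that other cells use too. *Irf7*, an interferon-induced factor, was at 16.0, 12.2 and 18.6 FPKM in WT and at 25.5, 53.9 and 46.7 FPKM in *Crlf2*-/- hearts, with no overlap (log2 fold change 1.38, SE 0.28, limma adjusted p = 0.223). *Bst2*, an interferon-induced membrane protein and the most abundant gene of the list, was at 135.1, 108 and 119 FPKM in WT and at 134.8, 261 and 208 FPKM in *Crlf2*-/- hearts, so 1 knockout mouse lay inside the WT range. *Tlr9*, a sensor of DNA in plasmacytoid DCs and B cells, was at 4.27, 4.68 and 7.40 FPKM in WT and at 7.32, 7.78 and 10.1 FPKM in *Crlf2*-/- hearts, and overlapped too. *Cox6a2*, a respiratory chain subunit of plasmacytoid DCs that heart muscle makes in quantity, had a log2 fold change of -0.84 beside the lower cardiomyocyte markers given above, which became -0.40 without *Crlf2*-/- replicate 1 and -1.23 without replicate 3. The other 7 tested genes of the list had log2 fold changes from -0.33 for *Pacsin1* to 0.35 for *Ly6d*. Of these 7, 0 had an unadjusted p under 0.05 in limma, against 6.58% of all tested genes.

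**Figure D4:**
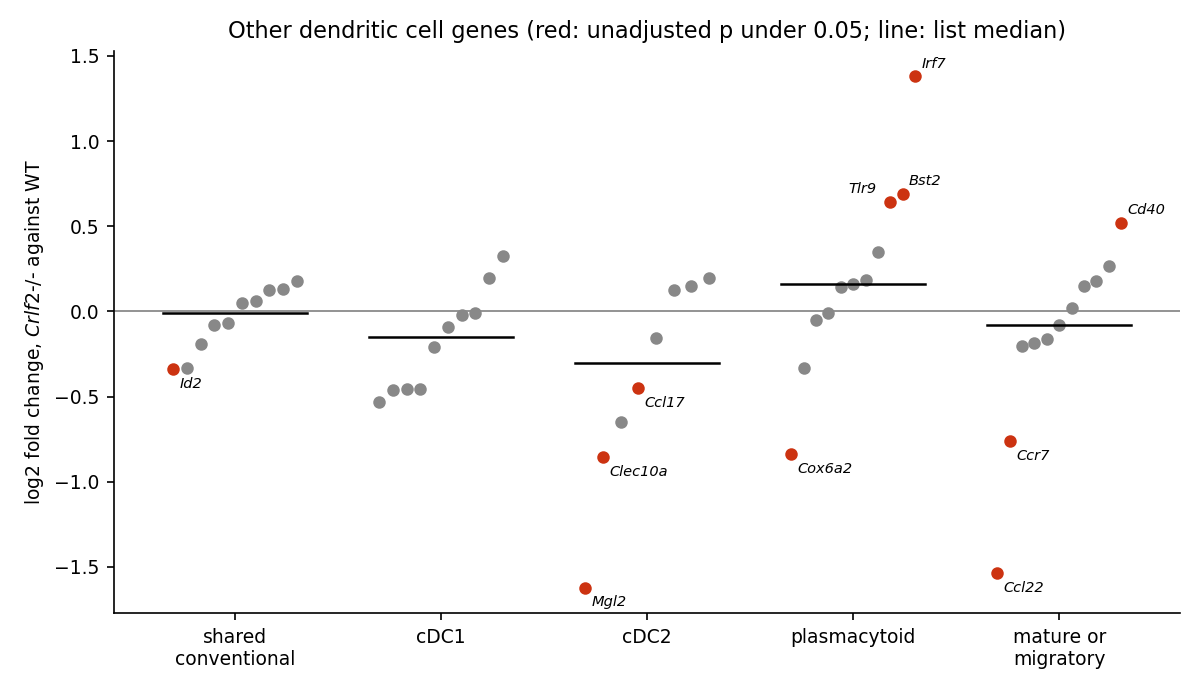
Log2 fold changes in *Crlf2*-/- against WT hearts of the 50 tested genes in 5 lists of dendritic cell genes, 1 point per gene, with named red points at an unadjusted p under 0.05 and black lines at list medians. The cDC2 and mature lists hold the lowest points, *Mgl2* and *Ccl22*, and the plasmacytoid list holds the highest, *Irf7*. The cDC1 list, of 10 genes, holds no red point, where 6.58% of all tested genes passed that level.

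Libraries within a group differed as well. *Crlf2*-/- replicate 2 was the lowest of the 6 libraries for 6 of the 10 identity genes (*Flt3*, *Zbtb46*, *Itgax*, *Xcr1*, *Clec9a* and *Cd209a*) and for 6 of the 10 tested cDC1 genes outside them, against 16.5% of all tested genes. In the same library 4 of 6 cardiomyocyte and 3 of 5 T cell markers were at their lowest, and 0 of 13 macrophage and monocyte markers were. Without this mouse the log2 fold change of *Cd209a* was -0.71 and that of *Zbtb46* -0.39, while those of *Xcr1* and *Clec9a* became 0.16 and 0.01.

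Markers of other leukocytes in the same libraries were read beside these values. All 5 T cell markers were lower in *Crlf2*-/- hearts without overlap, as were 6.45% of all tested genes, with a median log2 fold change of -1.18 and a summed level of 10.1 to 15.9 FPKM in WT and 5.68 to 7.42 FPKM in *Crlf2*-/- mice. Of 13 macrophage and monocyte markers 11 were higher and 2 lower, with a median of 0.10 and sums that overlapped, and the log2 ratio of *Cd209a* to the macrophage receptor gene *Csf1r* was lower in every *Crlf2*-/- library than in every WT library. *Csf1r* itself was higher in every *Crlf2*-/- library, at 84.0 to 88.3 FPKM against 76.6 to 82.1 FPKM in WT. It was 1 of 2 markers of the 13 above WT in every library, and 1 was below, against 5.24% and 6.45% of all tested genes. Since *Cd209a* was lower and *Csf1r* higher in every *Crlf2*-/- library, their ratio had to separate the groups. B cell markers had a median of 0.01 and NK cell markers one of 0.15, and their sums overlapped between the groups. The part of these cells in the *Cd209a* difference was not tested.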

How the data were processed

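The authors sequenced poly(A) RNA from 6 infarcted hearts, cleaned the reads, aligned them with HISAT2 2.0.5, ran featureCounts, and deposited FPKM beside each gene's length. The labels list mm10 among the builds, and the gene positions of the 10 members equal those of GENCODE M21 (GRCm38). The file holds 0 columns of other samples and no comparisons by the authors. FPKM times length gave whole multiples of 1 step for 100% of nonzero values (tolerance 0.05), from which fragments were worked out, and depth, the filter and the trimmed mean of M values rest on these. limma 3.58.1 in R 4.3.3 (trend and robust) was fitted to log2(FPKM + 0.1) over 15520 genes, without a block. Fold changes on this scale understate those of low genes. Each mouse gave 1 library. Limits given on fragments cover counting error only. The intervals from limma rest on the spread between libraries of a group, which includes differences between mice. For each gene limma drew that spread toward a trend fitted over all tested genes. The members and lists were chosen with earlier results of these data known, so no list was tested. Named from each list were the most abundant gene and up to 4 genes with the smallest unadjusted p under 0.05. *Irf4*, *Notch2*, *Dtx1*, *Csf2*, *Cd80*, *Cd86*, *Pacsin1*, *Ly6d*, *Itgad*, the *Cd209* neighbours and the markers of other cells are named beyond that rule, after their values were seen. The sum of *Clec10a* and *Mgl2* was also chosen after their values were seen. Sequences came from RefSeq windows, which matched 10 of 10 members. The exact tests were run with scipy 1.17.1 in Python 3.11.15. Alternatives covered scaling, pseudocount, filter, limma voom, a replicate block and leaving out each library.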

Additional observations from a re-analysis of the deposited data

How the results depend on the processing

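In 14 alternative settings per gene, 0 of the 10 genes passed the adjusted threshold, as with the limma fit reported, where 2 had an unadjusted p under 0.05. *Cd209a* kept its direction in all 14, with log2 fold changes from -1.16 without *Crlf2*-/- replicate 3 to -0.71 with a pseudocount of 1 and adjusted p from 0.297 to 0.889, and so did *Zbtb46*, from -0.52 to -0.28. *Flt3*, from -0.72 to -0.16, and *Fscn1*, from 0.10 to 0.26, also kept theirs. The other 6 genes changed sign in at least 1 setting: *Siglech* was at -0.0016 without scaling, at -0.0058 with a pseudocount of 1 and from -0.23 to 0.16 with single libraries left out, *Irf8* from -0.045 to 0.15, *Xcr1* from -0.34 to 0.16, *Batf3* from -0.30 to 0.195, *Itgax* from -0.33 to 0.027 and *Clec9a* from -0.43 to 0.014. The library whose loss changed the sign was WT replicate 2 for *Siglech*, *Irf8* and *Xcr1*, *Crlf2*-/- replicate 1 for *Batf3*, replicate 2 for *Itgax*, *Clec9a*, *Xcr1* and *Siglech*, and replicate 3 for *Siglech*. Over all genes 2 were called (1021 at an unadjusted p under 0.05). There were 6 with no filter on low genes, 1 with at least 10 fragments in every library, 4 with the replicate number as a block and 1 to 14 with single libraries left out (14 without *Crlf2*-/- replicate 1, 8 without WT replicate 3, and 1 without WT replicate 1, WT replicate 2 or *Crlf2*-/- replicate 3), and the cause was not tested. *Irf7* passed both thresholds without *Crlf2*-/- replicate 1 (adjusted p = 0.0369 from limma). List medians moved by less than the spread between libraries, from -0.31 to -0.16 for cDC2, -0.20 to -0.06 for cDC1, 0.09 to 0.22 for plasmacytoid, -0.14 to -0.03 for mature and -0.09 to 0.08 for shared genes. Libraries that share a replicate number deviated from their group means with correlations of -0.02, 0.115 and 0.12, so no pairing of mice was assumed. With the number as a block *Cd209a* had an adjusted p of 0.405 and no member was called. *Batf3*, *Siglech* and *Xcr1* rest on 22 to 75 fragments per library, which limits what their intervals can show.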
